A study of Bos taurus with 8 samples.

Results

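The genes described here carry glucose and lactate across the cell membrane and catalyse glycolysis, its regulation, the step to lactate and the pentose phosphate pathway. They were chosen by gene symbol from a list of 34 names, and 32 of them were found among the 15267 genes of the deposited table. SLC5A11, a sodium-coupled sugar carrier, and PDK4, a kinase that switches off pyruvate dehydrogenase, were not analysed here. Each of the 32 symbols matched a single row.

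Glucose enters most cells through carriers of the SLC2A (GLUT) family and is trapped as glucose 6-phosphate by a hexokinase. Phosphofructokinase then commits it to glycolysis, and the pathway ends in pyruvate, which lactate dehydrogenase can turn into lactate for export by carriers of the SLC16A (MCT) family. The pentose phosphate pathway diverts glucose 6-phosphate to ribose and NADPH. The elongating ruminant conceptus takes its hexoses from the uterine fluid, and its own fluids are known for their high fructose, which is made from glucose through sorbitol.

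RNA was sequenced from 8 filamentous bovine (Bos taurus) conceptuses at day 15 of in vitro origin, each sampled as a conceptus-half. In 4 of them FGF2, LIF and IGF1 had been added, and these are called FLI. Which part of development took place in vitro, and when the factors were present, is not stated here. The other 4 were controls without that label. Libraries are named by their titles, FLI 20, FLI 3M, FLI 4M and FLI 50, and control 10, control 20, control 3M and control 4M, and each list of 4 values runs in this order. No label says whether the samples come from separate animals or cultures, so p-values measure only the spread between these samples.

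The libraries held 108851495 to 152570016 reads, of which 1.76, 1.75, 1.93 and 1.85% fell on the 32 genes in FLI and 2.54, 1.86, 1.71 and 1.48% in control. Levels are the authors' CPM of a TMM-scaled library total. At this depth 1 read was worth at most 0.00987 CPM, so counting error was small for the abundant genes. SLC16A7, the lowest gene of the list, had only 26 reads in FLI 50 and 122 in control 20. Markers of trophectoderm were present in every library. KRT8 and KRT18, epithelial keratins, stood at 5055 CPM or more, TKDP1 at 3446 CPM or more and ELF5 at 1.72 to 3.62 CPM. Markers of hypoblast (7 of 8 listed genes, led by FN1) summed to 12155, 6539, 6785 and 17234 CPM in FLI and 38383, 18354, 4031 and 5988 CPM in control. Control 10 stood apart, with the highest hypoblast sum and the lowest level of GATA3, a trophectoderm transcription factor, at 11.7 CPM against 61.2 to 221 CPM in the other 7 libraries. CDX2, GATA2, TFAP2A, TFAP2C, DLX3, PAG2, PAG11, TKDP1 and TKDP4 of the trophectoderm list were also lowest there. KRT8, KRT18, ELF5 and IFNT2 of that list were not. Mesoderm markers (8 of 8 listed genes, led by COL1A1) summed to 133 CPM in control 10 against 6.81 to 33.8 CPM elsewhere. FOXF1, COL1A2, COL1A1 and KDR were highest in control 10, and the other mesoderm genes were not. Epiblast markers (6 of 8 listed genes, led by TDGF1) summed to 380 CPM there against 93.9 to 334 CPM elsewhere. LIN28A and TDGF1 were highest there, and the other epiblast genes found were not. FLI 20 stood apart in ALAS2, an enzyme of heme synthesis, at 66.6 CPM against 0.553 to 4.06 CPM elsewhere. Summed markers of endometrium (4 of 6 listed genes) reached 3.48 to 7.68 CPM in FLI and 3.85 to 15.5 CPM in control. In samples of mixed cells, fewer cells of a type and less RNA per cell cannot be told apart.

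Transcripts of every glycolytic step on the list were present in all 8 libraries, at levels that differed widely between genes. Since long transcripts collect more reads, levels of different genes are compared as CPM per kilobase of exon. GAPDH was highest at 1459 ± 288 CPM per kilobase (SD, n = 8), followed by PKM at 1033 ± 152, ENO1 at 1025 ± 142, the glucose carrier SLC2A3 at 823 ± 565 and ALDOA at 633 ± 90.7 CPM per kilobase. Among all genes of the table GAPDH ranked 41 and SLC2A3 ranked 108 by mean level per kilobase. The lowest were SLC16A7 at 0.199 ± 0.105 and PFKFB4 at 0.887 ± 1.77 CPM per kilobase. The coefficient of variation over all 8 libraries was below 20% for 10 of the 32 genes: PGAM1, TALDO1, GPI, PFKL, ENO1, ALDOA, PKM, TPI1, PGK1 and GAPDH. It was above 50% for 11 genes: the carriers SLC2A1, SLC2A3, SLC2A5, SLC5A1 and SLC16A7, the regulators PFKFB3, PFKFB4 and PDK1, and the enzymes HK1, PFKM and ENO3. PFKFB4 (199%) and ENO3 (127%) were the most variable, followed by SLC5A1 (92.9%) and SLC2A5 (82.7%).

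**Figure D1:**
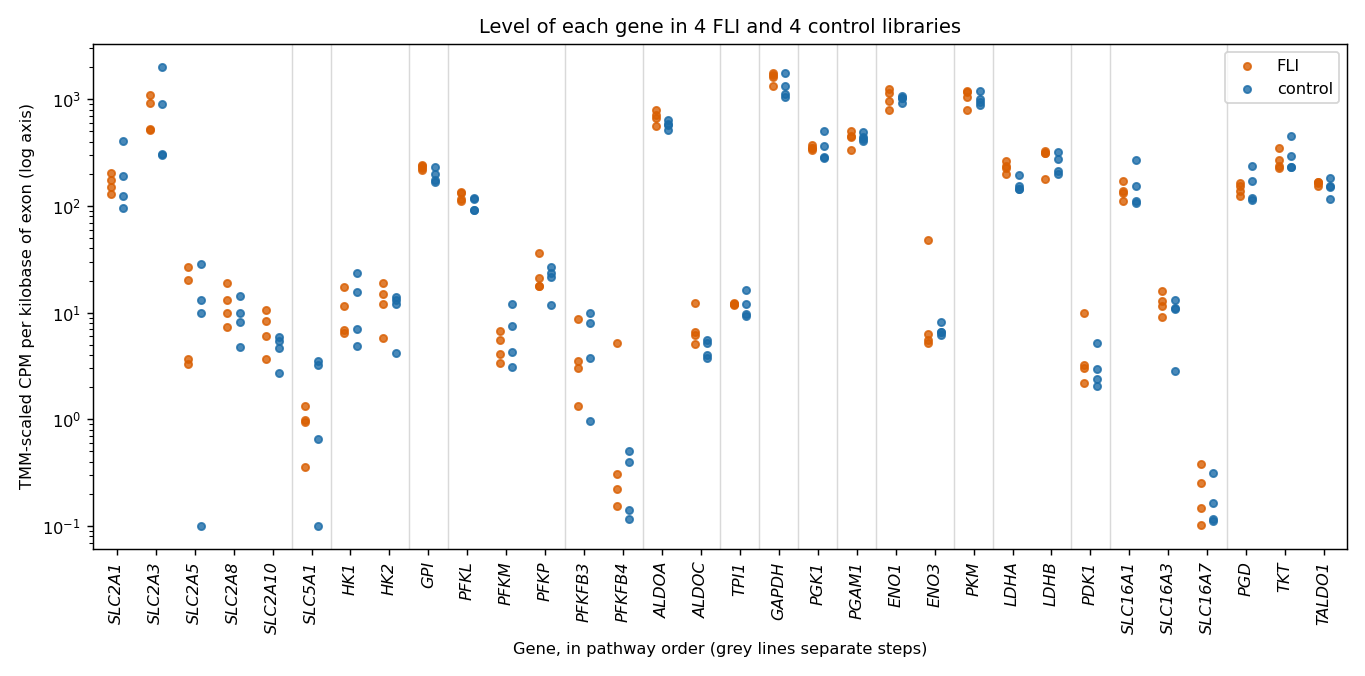
Level of each gene as TMM-scaled CPM per kilobase of exon on a log axis, with 4 FLI points left of 4 control points and grey lines between the steps of the pathway. GAPDH, PKM, ENO1 and SLC2A3 form the top, and most genes have overlapping groups.

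The comparison of FLI with control asked whether the added factors changed these transcripts. LDHA, a lactate dehydrogenase subunit, was the 1 gene whose 4 FLI libraries all lay above the 4 controls. In limma over 11897 genes, 0% passed an adjusted p of 0.05, and 0 of the 31 tested genes of this list did; the smallest adjusted p was 0.97. LDHA was also the 1 gene of the 31 (3.23%) with an unadjusted p under 0.05, where 2.84% of all tested genes had one, so this count is near the background. All FLI libraries above all controls was found for 1 of 31 genes (3.23%), against 0.841% of all tested genes, and this share rests on LDHA alone. DESeq2 gave 2 of the 31 an unadjusted p under 0.05, where 5.11% of all genes had one. Each edgeR test gave 1, where 3.14% of all genes had one in the quasi-likelihood test and 4.02% in the likelihood ratio test. With the title number as a block, limma gave 3 of the 31 an unadjusted p under 0.05, where 6.77% of all genes had one. SLC16A7 was too low to be tested.

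The mean of log2(CPM + 0.5) was higher in FLI for 22 of 31 genes, with a median log2 difference of 0.15. Of all tested genes 50.8% were higher and their median was 0.00446. SLC2A3 and PGK1 were among the 22 although their mean CPM was lower in FLI, at 3112 against 3579 and 683 against 697 CPM. With library size alone as the scaling the median of the list was 0.05 and that of all genes was -0.0921. The list thus stood 0.14 above all genes there and 0.15 above them with TMM. Over the alternatives this gap ran from 0.081 within titles ending in 0 to 0.261 within titles ending in M. It was not tested, since the genes were chosen with earlier results of these data known. The number of genes with a positive log2 difference depended on the libraries and the scaling. It was 28 of 31 without control 10, 18 of 31 without control 4M, 19 of 31 without control 3M, and 17 of 30 with library size alone. Summed trophectoderm markers (14 of 14 listed genes, led by TKDP1) were 73813, 75623, 30827 and 73935 CPM in FLI and 21767, 51563, 31886 and 27027 CPM in control. Each listed marker overlapped between the groups apart from PAG2, at 698 to 2519 CPM in FLI and 183 to 675 CPM in control. CDX2 was at 27.2 to 86.3 CPM in FLI and 6.92 to 94.9 CPM in control. The part of these markers in the log2 differences of the list was not tested. In 9 genes the log2 difference stayed positive in each of 20 alternative fits that could be run for them: SLC2A8, SLC2A10, GPI, PFKL, ALDOA, ALDOC, GAPDH, LDHA and SLC16A3. No lower gene kept its direction in all of them.

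**Figure D2:**
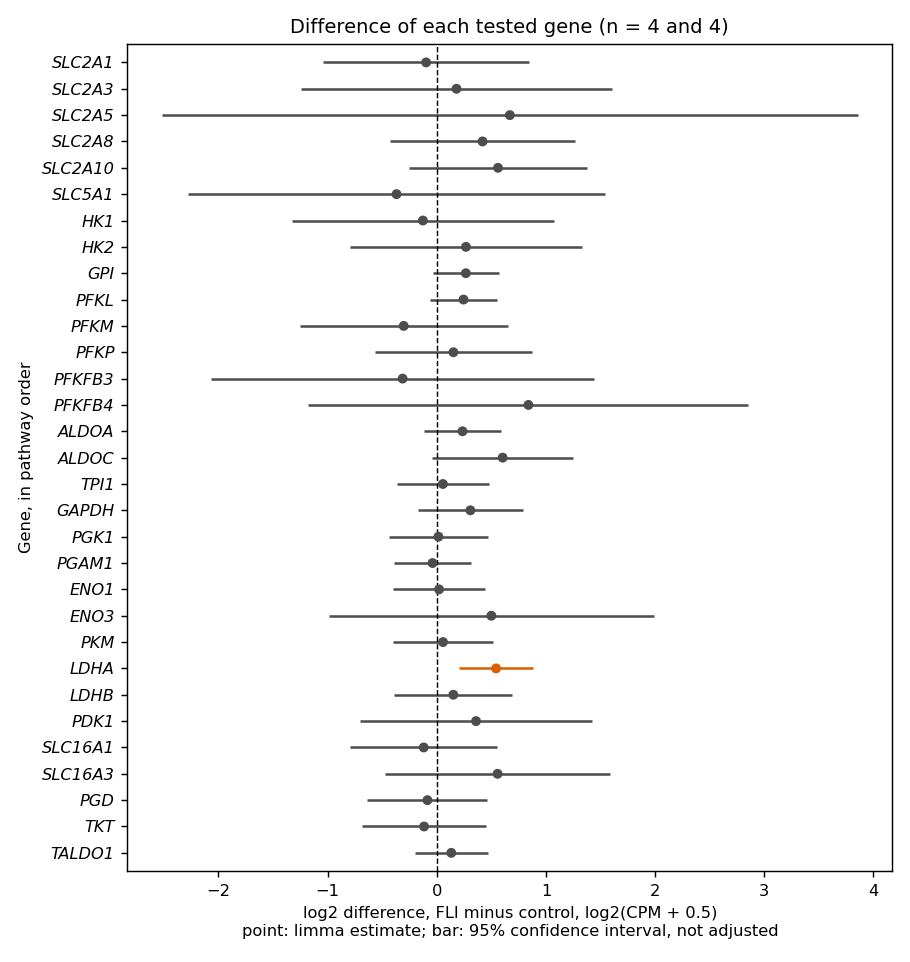
Log2 difference of FLI minus control for the 31 tested genes, from limma on log2(CPM + 0.5), with 95% confidence intervals that are not adjusted for the number of genes. LDHA, in orange, is the 1 gene whose groups do not overlap and the 1 whose interval, from 0.20 to 0.88, lies off 0.

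SLC2A3 (GLUT3), a glucose carrier of high affinity, was the leading hexose carrier transcript in every library. Its level was 3738, 2083, 2136 and 4491 CPM in FLI and 8174, 3692, 1242 and 1209 CPM in control. Control 10 was highest and control 3M and control 4M were lowest, so the FLI values lay inside the control range. The log2 difference was 0.18 (SE 0.62, 95% confidence interval -1.24 to 1.61, unadjusted p = 0.78 in limma), and it was 0.73 without control 10, -0.19 without control 4M, -0.17 without control 3M and -0.0236 without FLI 50. In the 3 pairs that share a title number, SLC2A3 was at 3738, 2083 and 2136 CPM in FLI and 3692, 1242 and 1209 CPM in control, and limma with this number as a block gave a log2 difference of 0.53 (unadjusted p = 0.0689, adjusted p = 0.695). Within titles ending in M the log2 difference was 0.78 (unadjusted p = 0.00335, adjusted p = 0.966 in limma). Within titles ending in 0 it was -0.42 (unadjusted p = 0.466 in limma). The fit within M compared only FLI 3M and FLI 4M with control 3M and control 4M. In that fit 4 of the 31 tested genes of the list had an unadjusted p under 0.05, as did 397 of all 11897. The fit within titles ending in 0 had as few libraries. SLC2A3 (ENSBTAG00000004556; ARS-UCD1.2, chromosome 5, 101438341 to 101451219) alone took 0.126 to 0.867% of all reads of a library. SLC2A3 made up 78.5 ± 3.57% of the summed level per kilobase of the 6 hexose carriers in FLI and 75.4 ± 6.67% in control (SD, n = 4 each).

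SLC2A1 (GLUT1), the widespread carrier of basal glucose uptake, was second with a share of 17.9 ± 3.51% in FLI and 21.0 ± 5.50% in control. It stood at 561, 353, 406 and 476 CPM in FLI and at 1103, 516, 341 and 259 CPM in control, with the FLI values again inside the control range. The SLC2A3 level per kilobase was 3.52 to 6.33 times that of SLC2A1 in FLI and 2.44 to 4.97 times in control.

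The other carriers were minor, each with at most 3.17% of the summed level per kilobase in a library. SLC2A5 (GLUT5), the fructose carrier, was lowest in FLI 4M (8.34 CPM) and highest in FLI 50 (67.3 CPM) among FLI, with 0.254 CPM in control 3M and 72.1 CPM in control 10 as the ends of the control range. Control 3M had 34 reads of SLC2A5 where every other library had 1188 or more. SLC2A10 was at 14.5, 41.3, 23.7 and 33.1 CPM in FLI and 10.6, 23.3, 21.4 and 18.1 CPM in control, a log2 difference of 0.56 (SE 0.36, unadjusted p = 0.154 in limma). FLI 20 lay inside the control range and FLI 3M was highest. SLC2A8, an intracellular member of the family, averaged 24.6 ± 9.87 CPM in FLI and 18.5 ± 7.86 CPM in control. SLC5A1 (SGLT1), which couples glucose to sodium, was at 4.35, 3.05, 3.19 and 1.16 CPM in FLI and 10.6, 11.6, 0.328 and 2.15 CPM in control. Its control values spanned the FLI ones on both sides (log2 difference -0.37, SE 0.84, unadjusted p = 0.671 in limma).

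HK1 and HK2 traded places between libraries. HK1, the hexokinase of most tissues, was at 104, 38.4, 40.6 and 67.9 CPM in FLI and 141, 91.7, 29.0 and 41.9 CPM in control. HK2, the inducible isoform, was at 22.4, 46.2, 73.6 and 57.4 CPM in FLI and 16.2, 46.3, 50.4 and 54.6 CPM in control. FLI 20 and control 10 were thus highest in HK1 and lowest in HK2. Of the level per kilobase of both, HK2 held 54.9 ± 21.3% in FLI and 49.5 ± 26.2% in control, and HK1 led in FLI 20, control 10 and control 20. The log2 difference of HK2 was 0.27 (SE 0.47, unadjusted p = 0.583 in limma), and that of HK1 was -0.13 (SE 0.52, unadjusted p = 0.814).

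HKDC1, a further hexokinase that was on the list of other pathway genes, exceeded both. It was at 425, 431, 230.0 and 406 CPM in FLI and 78.8, 302, 259 and 247 CPM in control, with FLI 4M inside the control range. Counted with HK1 and HK2, HKDC1 held 80.2 ± 6.80% of the level per kilobase in FLI and 68.4 ± 16.9% in control. It led in 7 libraries, while in control 10 HK1 led with 48.2% against 43.3% for HKDC1. Its log2 difference was 0.87 (SE 0.43, unadjusted p = 0.0724 in limma). HKDC1 and HK1 are neighbours on chromosome 28 of ARS-UCD1.2, at 25595174 to 25634958 and at 25694146 to 25769790.

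**Figure D3:**
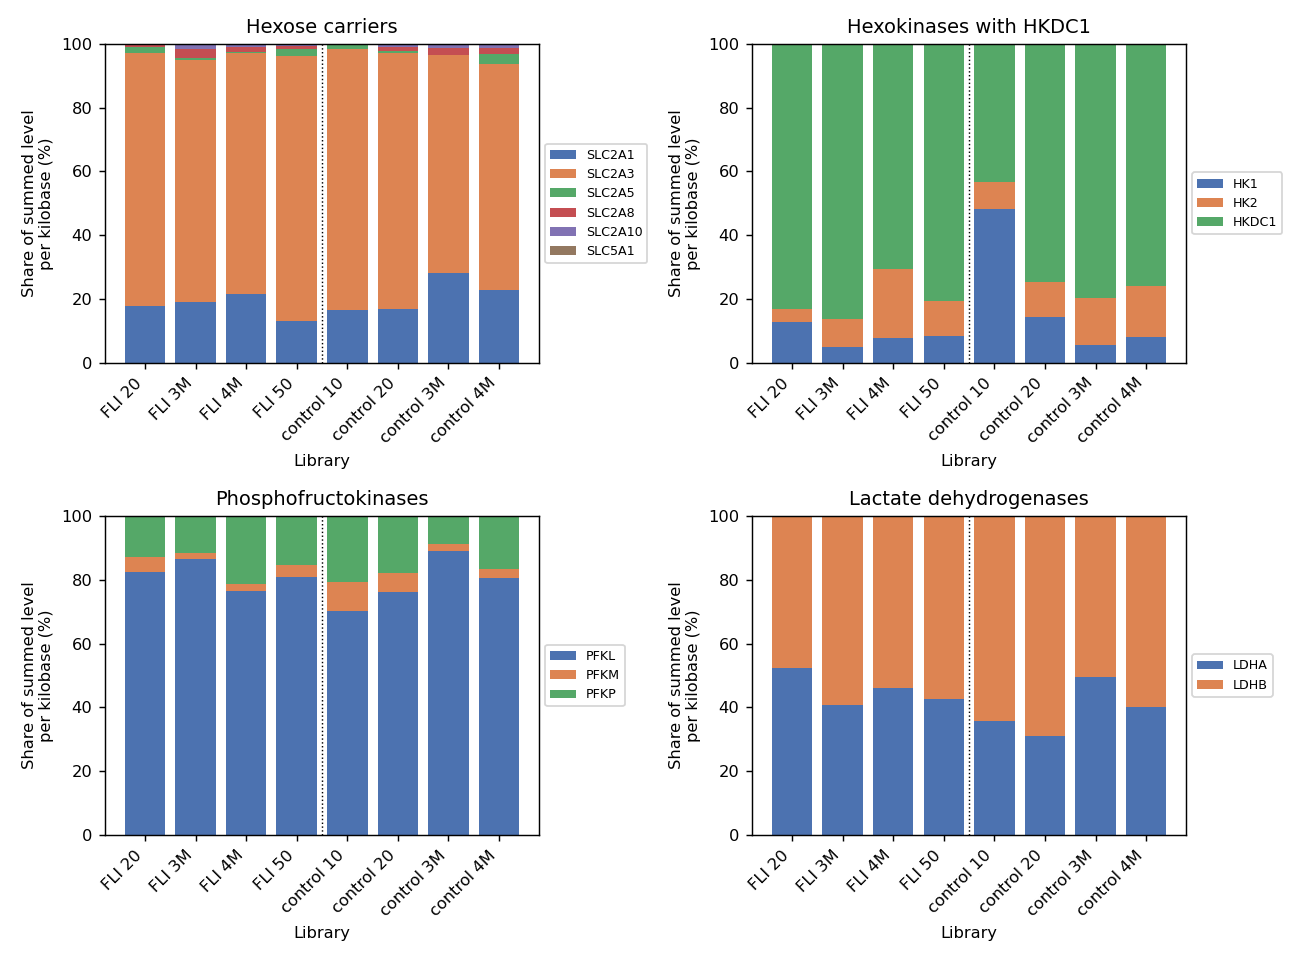
Share of each isoform in the summed level per kilobase of its step, in percent, for each library, with FLI left of the dotted line and control right of it. SLC2A3, HKDC1 and PFKL fill most of their bars except for HKDC1 in control 10, while LDHA and LDHB are close to even.

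GPI and PFKL varied little between libraries. GPI, which turns glucose 6-phosphate into fructose 6-phosphate, was at 494, 514, 461 and 481 CPM in FLI and 485, 423, 369 and 354 CPM in control. Control 10 lay within the FLI range and the other controls below it (log2 difference 0.27, SE 0.13, unadjusted p = 0.0751 in limma). PFKL, the liver-type phosphofructokinase, was at 331, 385, 377 and 323 CPM in FLI and 263, 265, 342 and 330.1 CPM in control (log2 difference 0.24, SE 0.14, unadjusted p = 0.107). Control 3M and control 4M reached into the FLI range. PFKL led its step in every library, with 81.5 ± 4.13% of the level per kilobase in FLI and 78.9 ± 7.94% in control. PFKP, the platelet type, held 15.1 ± 4.33% and PFKM, the muscle type, 3.33 ± 1.28% in FLI, against 15.9 ± 5.07% and 5.19 ± 3.22% in control.

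PFKFB3 and PFKFB4 make and break down fructose 2,6-bisphosphate, the activator of phosphofructokinase. PFKFB3 was at 6.41, 17.0, 41.9 and 14.7 CPM in FLI and 4.70, 18.2, 48.0 and 39.0 CPM in control (log2 difference -0.31, SE 0.77, unadjusted p = 0.693 in limma). It was lowest in control 10 and FLI 20, and the log2 difference was 0.11 without FLI 20 and 0.0944 without control 3M. PFKFB4 was at 18.2 CPM in FLI 20 and 0.534 to 1.07 CPM in the other FLI libraries, against 0.403 to 1.74 CPM in control. In FLI 20 PFKFB4 held 79.8% of the level per kilobase of both, against 1.16 to 34.0% in the other 7 libraries.

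At the aldolase and enolase steps, where the list gives several isoforms, ALDOA and ENO1 held nearly all of the level per kilobase. ALDOA was at 1356, 1615, 1431 and 1146 CPM in FLI and 1049, 1154, 1295 and 1192 CPM in control (log2 difference 0.24, SE 0.15, unadjusted p = 0.161 in limma). FLI 50 lay inside the control range, and the other FLI libraries lay above all controls. ALDOA held 98.9 ± 0.476% of the aldolase level per kilobase in FLI and 99.2 ± 0.165% in control. ALDOC, the brain-type aldolase, was at 24.5, 13.0, 12.3 and 10.1 CPM in FLI and 10.4, 7.96, 11.2 and 7.46 CPM in control (log2 difference 0.60, SE 0.28, unadjusted p = 0.0629). FLI 50 was again the library that overlapped the controls. TPI1, which interconverts the 2 triose phosphates, was listed at only 20.7, 21.3, 21.2 and 21.9 CPM in FLI and 28.7, 21.5, 17.2 and 16.5 CPM in control (log2 difference 0.06, SE 0.19, unadjusted p = 0.772). Its level per kilobase of 12.0 ± 2.09 (SD, n = 8) was far below the 1459 of GAPDH, the next enzyme. GAPDH, PGK1, TPI1 and LDHA are glycolytic genes with processed copies elsewhere in mammalian genomes. How reads with several positions were counted is not given, so their levels relative to other genes are uncertain.

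GAPDH was at 3078, 3195, 3328 and 2492 CPM in FLI and 2120.5, 2532, 3293 and 1968 CPM in control (log2 difference 0.31, SE 0.21, unadjusted p = 0.183 in limma). Control 20 and control 3M lay above FLI 50, the lowest FLI library. PGK1, the X-linked phosphoglycerate kinase that yields ATP, was at 683, 654, 721 and 675 CPM in FLI and 554, 543, 706 and 984 CPM in control (log2 difference 0.0146, SE 0.20, unadjusted p = 0.943). Its SD was 27.8 CPM in FLI and 205 CPM in control, where control 4M was highest. PGAM1, the mutase that follows, was at 620.3, 819.7, 928 and 826 CPM in FLI and 913, 823, 774 and 749 CPM in control (log2 difference -0.04, SE 0.16, unadjusted p = 0.806). ENO1, the widespread enolase, was at 1562, 2499, 1923 and 2254 CPM in FLI and 2124, 2034, 2028 and 1827 CPM in control (log2 difference 0.0202, SE 0.18, unadjusted p = 0.915). FLI 20 was the lowest library for both PGAM1 and ENO1. ENO3, the muscle enolase, was at 129.8 CPM in FLI 20 and 14.1 to 22.2 CPM in the other 7 libraries, which brought its share of the enolase level per kilobase to 5.75% there against 0.440 to 0.762% elsewhere. PKM, which makes pyruvate and ATP, was at 2467, 3639.8, 3697 and 3255 CPM in FLI and 2927, 3086, 3721 and 2748 CPM in control (log2 difference 0.06, SE 0.20, unadjusted p = 0.786). FLI 20 was the lowest library for PKM as well.

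At the lactate step LDHA, the subunit of muscle-type lactate dehydrogenase, was higher in FLI than in control without passing the adjusted threshold. Its level was 376, 428, 507 and 447 CPM in FLI and 290.3, 274, 372 and 273 CPM in control. The lowest FLI value, 375.6 CPM in FLI 20, was close to the highest control value, 372.3 CPM in control 3M. The means were 439 ± 54.2 CPM in FLI and 302 ± 47.4 CPM in control (SD, n = 4 each), a log2 difference of 0.54 (SE 0.15, 95% confidence interval 0.20 to 0.88). The unadjusted p was 0.00579 and the adjusted p was 0.97 in limma. Across the 20 alternatives the log2 difference ran from 0.44 to 0.65, and the smallest adjusted p was 0.439. The authors' deposited table gives LDHA a log2 fold change of 0.54 with an adjusted p of 0.781. In ARS-UCD1.2 LDHA (ENSBTAG00000008683) occupies bases 26290893 to 26301350 of chromosome 29.

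LDHB, the heart-type subunit, was at 338, 609.9, 586 and 589 CPM in FLI and 515, 602, 375 and 402 CPM in control. FLI 20 was below every control and the other FLI libraries were at or above most of them (log2 difference 0.15, SE 0.24, unadjusted p = 0.541 in limma). LDHB was the larger part of the level per kilobase in 7 libraries. This split is uncertain, since how reads with several positions were counted is not given. LDHA led in FLI 20, where its share was 52.3%. The LDHA share was 45.5 ± 5.01% in FLI and 39.0 ± 7.87% in control, and control 3M at 49.4% exceeded 3 of the FLI libraries.

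**Figure D4:**
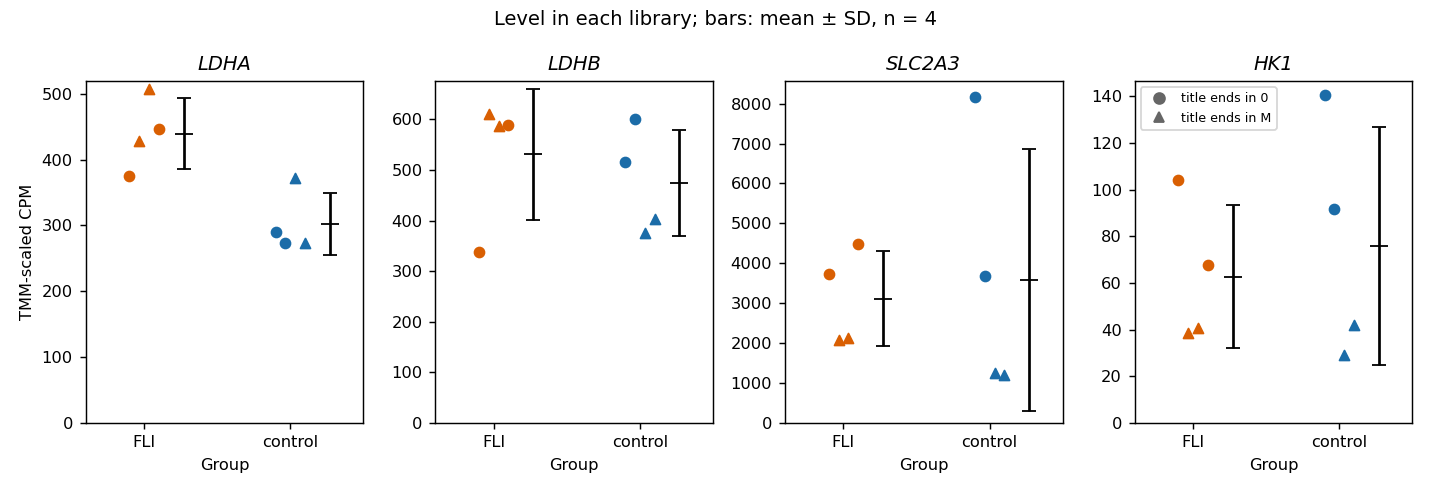
TMM-scaled CPM of LDHA, LDHB, SLC2A3 and HK1 in each library, with FLI left of control, circles for titles that end in 0, triangles for titles that end in M, and black bars for mean ± SD (n = 4). LDHA separates the groups by a narrow gap, while SLC2A3 and HK1 separate circles from triangles.

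Lactate and pyruvate cross the membrane through a few SLC16A carriers. Of the summed level per kilobase of SLC16A1, SLC16A3 and SLC16A7, SLC16A1 (MCT1) held 91.5 ± 2.37% in FLI and 93.0 ± 4.32% in control, and it led these 3 genes in every library. SLC16A9, a family member on the list of other pathway genes and named after its values were seen, averaged 164 ± 42.0 CPM per kilobase in FLI and 126 ± 78.2 CPM per kilobase in control. It was at 54.0 CPM in control 10 and 344 to 665 CPM elsewhere. Whether SLC16A9 carries lactate was not examined. SLC16A1 was at 419, 354, 432 and 545 CPM in FLI and 844, 488, 338 and 350.4 CPM in control (log2 difference -0.12, SE 0.29, unadjusted p = 0.693 in limma). All FLI values lay inside the control range. SLC16A3 (MCT4), the carrier of lactate-exporting cells, was at 21.7, 31.0, 38.3 and 27.3 CPM in FLI and 6.70, 25.7, 31.6 and 26.2 CPM in control (log2 difference 0.56, SE 0.45, unadjusted p = 0.252). Control 10 was far below the rest, and without it the log2 difference was 0.0641. SLC16A7 (MCT2) was at 0.257 to 0.944 CPM in FLI and 0.276 to 0.789 CPM in control. PDK1, a kinase that holds pyruvate out of the mitochondrial route, was at 39.8, 8.89, 13.1 and 12.2 CPM in FLI and 20.9, 9.71, 12.0 and 8.35 CPM in control. FLI 20 stood above all other libraries (log2 difference 0.36, SE 0.47, unadjusted p = 0.463), and without it the log2 difference was -0.0856.

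Of the 3 listed enzymes of the pentose phosphate pathway, all abundant, TKT and PGD were highest in control 10 and TALDO1 in control 3M. TKT, the transketolase of its non-oxidative branch, was at 1013, 682, 659 and 777 CPM in FLI and 1304, 853, 662 and 665 CPM in control (log2 difference -0.12, SE 0.25, unadjusted p = 0.651 in limma). PGD, which yields NADPH in the oxidative branch, averaged 379 ± 46.4 CPM in FLI and 419 ± 151 CPM in control, and TALDO1, the transaldolase, 203 ± 9.23 CPM in FLI and 187 ± 34.4 CPM in control. Without control 10 the log2 difference became 0.0965 for TKT and 0.125 for PGD.

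Several genes followed the last character of the library title more closely than the treatment. No label says what this character marks. The comparison of 0 with M titles was made after the values were seen, so it is given without a test. Fits of FLI against control within each title ending were among the alternatives. In 7 of the 31 tested genes (22.6%) all 4 libraries with titles that end in 0 lay above all 4 that end in M: SLC2A1, SLC2A3, HK1, PFKM, PFKFB4, PGD and TKT. This held for 8.99% of all tested genes. The opposite order was found in 0 of the 31 genes, against 9.47% of all tested genes. Counting both orders, the title groups lay apart in 7 of the 31 genes (22.6%) and in 18.5% of all tested genes, so this count is near the background. For SLC2A3 the libraries ending in 0 ranged from 3692 to 8174 CPM and those ending in M from 1209 to 2136 CPM. HK1 ranged from 67.9 to 141 CPM in those ending in 0 and from 29.0 to 41.9 CPM in those ending in M. The mean log2 difference of 0 over M was 1.56 for SLC2A3, 1.39 for HK1, 1.03 for PFKM, 0.90 for SLC2A1 and 0.54 for both TKT and PGD.

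The summed hypoblast markers, most of which was FN1, were at 12155 to 38383 CPM in libraries ending in 0 and 4031 to 6785 CPM in those ending in M. GATA4, GATA6, SOX17, APOA1 and FN1 were each higher in all libraries ending in 0, while FOXA2 and PDGFRA overlapped. PDGFRA was at 4.55, 8.02, 18.5 and 19.4 CPM in FLI 20, FLI 50, control 10 and control 20, and at 5.86, 21.7, 16.9 and 25.0 CPM in FLI 3M, FLI 4M, control 3M and control 4M. Their part in the levels of these genes was not tested. Within titles ending in M the log2 difference of FLI minus control was positive for 27 of 31 genes, with a median of 0.26 against -0.00533 over all genes. Within titles ending in 0 it was positive for 17 of 31 genes, with a median of 0.10 against 0.0231 over all genes. Limma with the title's last character as an added term again called 0 of the 31 genes. Control 10 was the highest library for 9 and the lowest for 8 of the 31 genes, shares of which it held 23.9% and 28.3% over all tested genes. FLI 50 was neither the highest nor the lowest library for any of them.

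**Figure D5:**
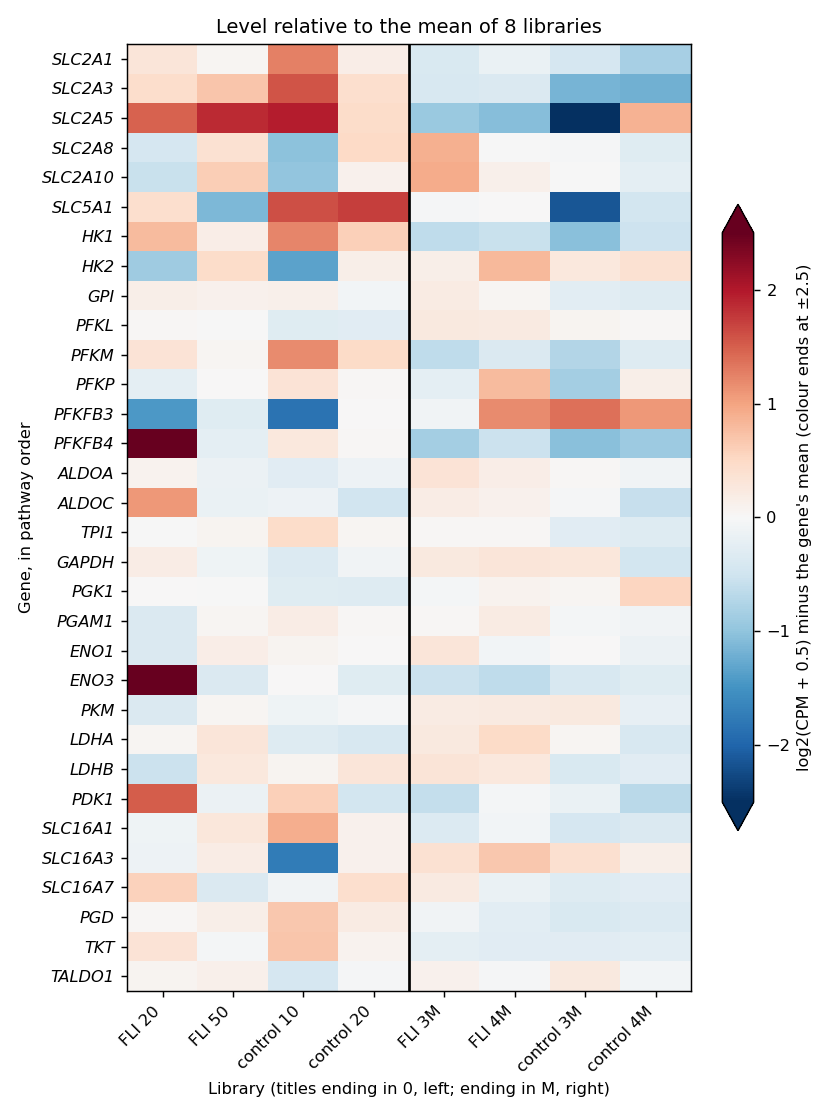
Level of each of the 32 genes in each library as log2(CPM + 0.5) minus the gene's mean over the 8 libraries, red for higher and blue for lower, with the 4 titles that end in 0 left of the black line and the 4 that end in M right of it. SLC2A1, SLC2A3, HK1, PFKM, PGD and TKT are redder on the left, and PFKFB4, ENO3 and PDK1 are darkest red in FLI 20.

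Of 66 other genes of glucose metabolism, 64 were in the table and 51 were tested. The log2 difference of FLI minus control was positive in 25 and negative in 26 of these, with a median of -0.00252. Limma called 0 of them, and 3 (5.88%) had an unadjusted p under 0.05, against 2.84% of all tested genes. SHPK, which makes sedoheptulose 7-phosphate, was at 2.72, 4.92, 3.94 and 3.56 CPM in FLI and 1.31, 2.56, 2.45 and 2.57 CPM in control (log2 difference 0.66, SE 0.26, unadjusted p = 0.0321). RPIA, the ribose 5-phosphate isomerase, was at 8.24, 18.1, 22.1 and 21.5 CPM in FLI and 36.5, 31.8, 25.5 and 23.3 CPM in control (log2 difference -0.80, SE 0.32, unadjusted p = 0.0334). All FLI libraries lay above all controls in SHPK, 1.96% of the 51 genes against 0.841% of all tested genes, and below them in RPIA, 1.96% against 0.605%.

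AKR1B1, the aldose reductase that turns glucose into sorbitol, averaged 845 ± 718 CPM per kilobase (SD) over the 8 libraries, with its highest value, 2577, in FLI 20. SLC2A3 had a near mean, 823 ± 565, but its highest value, 2010, was in control 10. AKR1B1 was at 3633, 1182, 819.8 and 1125 CPM in FLI and 495, 779, 843 and 649 CPM in control. FLI 20 was highest and FLI 4M lay inside the control range (log2 difference 1.06, SE 0.43, unadjusted p = 0.0389 in limma). SORD, named after its values were seen, turns sorbitol into fructose and averaged 129 ± 25.4 CPM in FLI and 108 ± 81.1 CPM in control. SORD was at 15.9 CPM in control 10 and 67.1 to 192 CPM in the other libraries. BSG, the partner that brings SLC16A1 and SLC16A3 to the membrane, was at 2000.4, 1002, 990.1 and 976 CPM in FLI and 615, 799, 1184 and 862 CPM in control (log2 difference 0.49, SE 0.29, unadjusted p = 0.129). MPC1 and MPC2, the mitochondrial pyruvate carrier, averaged 40.8 ± 13.3 and 44.9 ± 3.96 CPM in FLI and 45.3 ± 17.5 and 47.0 ± 4.65 CPM in control. G6PC3, a glucose 6-phosphatase, averaged 51.4 ± 13.1 CPM in FLI and 46.7 ± 5.28 CPM in control.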

How the data were processed

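Stranded poly-A libraries were made from 8 samples, per the labels. HISAT2, featureCounts, edgeR and FastQC, with the build ARS-UCD1.2, appear in the submitters' processing notes. Tool versions, the counter's strand option and its handling of multi-mapped reads were not given in the sources used here. Values in the deposited signal columns are CPM after TMM scaling of library totals: 100% of values were whole multiples of 1 step per column within 0.001, and these steps equal edgeR's TMM scaling. The authors' deposited table also holds, per the file headers, p-values, the score of a likelihood ratio test and 2 log2 columns, for fold change and average level. Exon length is that of the deposited table.

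Limma 3.58.1 (eBayes with trend, R 4.3.3) was run on log2(CPM + 0.5) for the 11897 genes with at least 1 CPM in at least 4 samples, with Benjamini-Hochberg adjustment over all of them, a threshold of 0.05 and two-sided tests. A fold change on this scale understates the change of low genes. edgeR 4.0.16 and DESeq2 1.42.0 were run on the recovered reads as alternatives. The scripts were tested on simulated data. Shares and levels per kilobase were not tested.

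Per-library values are given for the leading gene of each step and the 8 genes of smallest p. The values of 1 gene of the pathway list are not reported here. The genes, the pathway list and most alternatives were chosen with earlier results of these data known. The title ending as a term and HKDC1 among the hexokinases were added after the data were seen. The title numbers 20, 3M and 4M occur in both groups. For these pairs, correlations of the deviations were 0.133, 0.351 and 0.359, each over 0.1, so the number was used as a block, although every FLI and control combination with the same last character was also over 0.1. Interval bounds cover the spread between samples.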

Additional observations from a re-analysis of the deposited data

Results flagged for a closer look

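In groups of 4, a library was marked where its gap to its nearest neighbour, as a share of the range, was above Dixon's critical value for 4 samples. Of 64 groups examined, 4 were marked, all in FLI 20, and chance marks about 1 in 20. PFKFB4 in FLI 20 had 18.2 CPM, with 0.534 to 1.07 CPM in the remaining FLI libraries. ENO3 in FLI 20 was at 129.8 CPM, against 14.1 to 17.1 CPM in the others. PDK1 in FLI 20 was at 39.8 CPM, against 8.89 to 13.1 CPM. LDHB in FLI 20 was lower, at 338 CPM against 586 to 609.9 CPM. In the same library ALAS2 stood at 66.6 CPM and AKR1B1 at 3633 CPM, and their part in these values was not tested.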

How the results depend on the processing

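Over 20 alternatives (pseudocount, filter, scaling, tool, each library left out, replicate block, title ending), 78 of 616 log2 differences of FLI minus control changed sign, in 22 of 31 genes. None of these genes passed the adjusted threshold in any of them. The number of all genes that passed was 9 with DESeq2 and 22 with edgeR's likelihood ratio test with robust weights, and 0 otherwise. The cause was not tested.

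Only genes whose sign differed from that of the main fit are listed for each alternative in this paragraph. With the replicate block on 6 samples, where 24 of 31 genes were higher in FLI, the log2 difference was 0.27 for SLC2A1, 0.42 for SLC5A1, 0.18 for HK1, -0.24 for HK2, -0.076 for PGK1, -0.0017 for ENO1, 0.05004 for SLC16A1, 0.0599 for PGD, 0.093 for TKT and -0.0023 for TALDO1. Within titles ending in M it was 0.35 for SLC2A1, 1.29 for SLC5A1, 0.18 for HK1, 0.028 for PFKM, -0.28 for PGK1, 0.20 for PGAM1, -0.23 for ENO3, 0.19 for SLC16A1, 0.18 for PGD, 0.016 for TKT and -0.054 for TALDO1. Within titles ending in 0 it was -0.42 for SLC2A3, -0.31 for PFKP, 0.055 for PFKFB3, -0.22 for TPI1, -0.15 for ENO1, -0.085 for PKM and -0.32 for LDHB. With library size alone it was -0.043 for TPI1, -0.086 for PGK1, -0.081 for ENO1 and -0.044 for PKM. The likelihood ratio test gave 0.057 for SLC2A1, -0.00078 for PFKP, -0.012 for PGK1 and -0.046 for ENO3. The quasi-likelihood test gave -0.22 for SLC2A3 and -0.015 for PGK1, and DESeq2 gave -0.24 for SLC2A3, -0.0019 for TPI1 and -0.039 for PGK1.

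Leaving out each library in turn gave ranges across 0 in 20 genes: SLC2A1 -0.39 to 0.31, SLC2A3 -0.19 to 0.73, SLC2A5 -0.76 to 1.43, SLC5A1 -1.14 to 0.14, HK1 -0.50 to 0.26, HK2 -0.14 to 0.61, PFKM -0.60 to 0.037, PFKP -0.10 to 0.29, PFKFB3 -0.98 to 0.11, PFKFB4 -0.13 to 1.26, TPI1 -0.044 to 0.21, PGK1 -0.091 to 0.19, PGAM1 -0.12 to 0.077, ENO1 -0.0802 to 0.15, ENO3 -0.26 to 0.79, PKM -0.0091 to 0.19, PDK1 -0.086 to 0.62, SLC16A1 -0.28 to 0.16, PGD -0.23 to 0.12, TKT -0.25 to 0.097. The mean SLC2A3 share was 83.3% without division by length, against 77.0% with it, and the mean HK2 share was 12.0% with HKDC1 counted, against 52.2% without it. The title ending as a term and HKDC1 among the hexokinases were chosen after seeing the data. With 4 libraries a group, the 95% confidence interval of SLC2A3 still spanned -1.24 to 1.61.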
